A study of Mus musculus with 12 samples.

Results

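The genes for the protein subunits of the mitochondrial ribosome were compared between ARG1+ and ARG1- microglia of the mouse basal forebrain and striatum. They were taken as the protein-coding genes of the count table whose GRCm38 (GENCODE M21) symbol begins with Mrpl or Mrps followed by a digit. This rule gave 78 of the 55487 genes in the table, and all 78 were among the 16908 genes tested. Of these 78 genes, 51 code for proteins of the large subunit and 26 for proteins of the small subunit, with Mrps18a and Mrps30 counted in the large subunit, where their products sit. The remaining gene, Mrps36, carries the name of a ribosomal protein although its product belongs to the alpha-ketoglutarate dehydrogenase complex.

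All 12 libraries came from YARG mice at postnatal day 13, a reporter strain that makes YFP from the Arg1 locus, so both populations carried the reporter allele. There were 3 libraries each of ARG1- female, ARG1+ female, ARG1- male and ARG1+ male microglia. Each library held sorted cells from several pooled brains of 1 sex, gated as CX3CR1+ and CD206- and then split by YFP. The populations are therefore defined by the reporter: the Arg1 transcript was at 0 counts in 10 libraries, at 2 counts in ARG1+ female replicate 8 and at 52 in ARG1+ female replicate 15, which gave no check of the labels. Library totals ran from 28356659 to 60625170 counts. Genes with at least 1 count numbered 17846 to 19844 in ARG1- libraries and 19018 to 21734 in ARG1+ libraries. The lowest count of any mitochondrial ribosomal protein gene in any library was 36.

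Mitochondrial ribosomes sit in the mitochondrial matrix and make the few proteins that the mitochondrial genome still encodes, all of them core subunits of the oxidative phosphorylation complexes. Their rRNAs come from the mitochondrial genome, whereas every one of their proteins is encoded in the nucleus, made in the cytosol and imported. Many of these proteins descend from bacterial ribosomal proteins, and the others were added during the evolution of mitochondria. The 78 genes lay on 17 chromosomes, with 0 of them on X or Y.

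Promoters of part of these genes hold short sequence elements known from nuclear genes with mitochondrial products, and examples are printed here. The part of these elements in the ARG1 difference was not tested. RefSeq promoter windows (GRCm38.p6, 250 bases before to 50 bases after the start) were found for 69 of the 78 genes. The letters CCGGAAG, a site for ETS family factors, stood on either strand in the windows of 26 of these 69 genes (37.7%). The share was 12.94% of 17491 protein-coding genes. By window it was 34.7% of the 75 windows of these genes and 8.86% of all 32851 windows. The letters GCATGCGC, taken from the site of nuclear respiratory factor 1 (NRF1), were in the windows of 8 genes (11.6%), against 3.93% of protein-coding genes. By window the shares were 10.7% and 2.71%. The letters AAGATGGCG, a site of the factor YY1, were also in 8 genes (11.6%), against 2.14%, and by window in 10.7% against 1.40%. The TATA box letters TATAAA were in 5 genes (7.2%), against 14.80%, and by window in 6.7% against 13.62%. At least 1 of the first 3 elements was found in 36 of the 69 genes (17.57% of protein-coding genes). In the windows used here 0 matches shared bases with a match of another element, and a match is a description of the letters only.

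Windows are printed from 150 bases before to 30 bases after the start, 5′ to 3′ on the strand of the gene, for the 4 genes of smallest p and the 1 gene of largest p among those with 1 RefSeq start and an NRF1, ETS or YY1 element in this stretch. Capitals mark the elements. The first 4 genes were lower in ARG1+ microglia and the last, Mrps26, did not pass the test. Mrpl22 holds an ETS and, downstream of it, an NRF1 element, Mrps23, Mrpl34 and Mrps26 an ETS element, and Mrps11 a YY1 element.
Mrpl22, chr11:58171514-58171693, plus strand: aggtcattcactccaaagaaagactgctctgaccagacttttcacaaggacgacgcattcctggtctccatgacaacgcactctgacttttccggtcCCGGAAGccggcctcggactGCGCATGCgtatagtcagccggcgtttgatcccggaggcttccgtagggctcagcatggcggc
Mrps23, chr11:88204238-88204417, plus strand: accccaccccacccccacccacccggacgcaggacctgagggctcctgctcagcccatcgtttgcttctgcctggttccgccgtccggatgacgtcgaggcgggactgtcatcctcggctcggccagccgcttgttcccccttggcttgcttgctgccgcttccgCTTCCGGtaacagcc
Mrps11, chr7:78782981-78783160, plus strand: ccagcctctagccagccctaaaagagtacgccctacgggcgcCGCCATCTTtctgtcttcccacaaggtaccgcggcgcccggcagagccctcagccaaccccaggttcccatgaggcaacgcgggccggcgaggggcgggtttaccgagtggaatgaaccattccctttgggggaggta
Mrpl34, chr8:71464776-71464955, plus strand: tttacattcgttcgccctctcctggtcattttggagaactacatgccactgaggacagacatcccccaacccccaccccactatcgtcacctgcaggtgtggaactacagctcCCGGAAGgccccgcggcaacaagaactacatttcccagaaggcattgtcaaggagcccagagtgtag
Mrps26, chr2:130563607-130563786, plus strand: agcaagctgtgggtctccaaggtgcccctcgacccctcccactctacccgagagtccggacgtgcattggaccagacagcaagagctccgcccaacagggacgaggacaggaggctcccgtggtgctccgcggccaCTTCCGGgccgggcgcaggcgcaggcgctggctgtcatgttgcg

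Mitochondrial ribosomal protein genes were broadly lower in ARG1+ than in ARG1- microglia. A total of 44 of the 78 genes fell and 0 rose (edgeR quasi-likelihood test with sex in the model, Benjamini-Hochberg adjusted p under 0.05 over all 16908 genes), where 9.42% of all genes tested fell and 6.44% rose. The summed level of the 78 genes was lowest at 2243, median 2437 and highest at 2705 normalised counts per 1000000 (CPM) in the 6 ARG1- libraries, and 1462, 1613 and 1924 CPM in the 6 ARG1+ libraries. The populations did not overlap on this sum, and the mean of 1666 ± 174 CPM in ARG1+ (SD, n = 6) was 0.680 of the mean of 2449 ± 158 CPM in ARG1-. In bulk libraries of sorted cells, fewer cells expressing a gene and less RNA per cell cannot be told apart.

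The median log2 fold change over the 78 genes was -0.59, against 0.06 over all genes tested. The fitted change was below 0 for 72 genes and above 0 for 6, Mrpl37, Mrpl38, Mrps5, Mrps25, Mrps26 and Mrps36. The genes that fell did so by 0.50 to 1.38 on the log2 scale, and 8 of them by at least 2-fold. For 30 genes every ARG1+ library lay below every ARG1- library, against 6.56% of all genes tested, and all 30 were among the 44. Of the 34 genes that did not pass, 28 were fitted below 0 and 13 had an unadjusted edgeR p under 0.05. Such a p was found for 57 of all 78 genes and for 4919 of all 16908 genes tested. Among 1957 other protein-coding genes within the middle range of expression of these genes, 12.8% fell and the median was -0.01. The count of 44 became 28 without ARG1+ female replicate 8, 25 without ARG1+ male replicate 12 and 25 without ARG1+ male replicate 16, and the fall count lay between 30 and 48 when any of the other 9 libraries was left out.

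**Figure D1:**
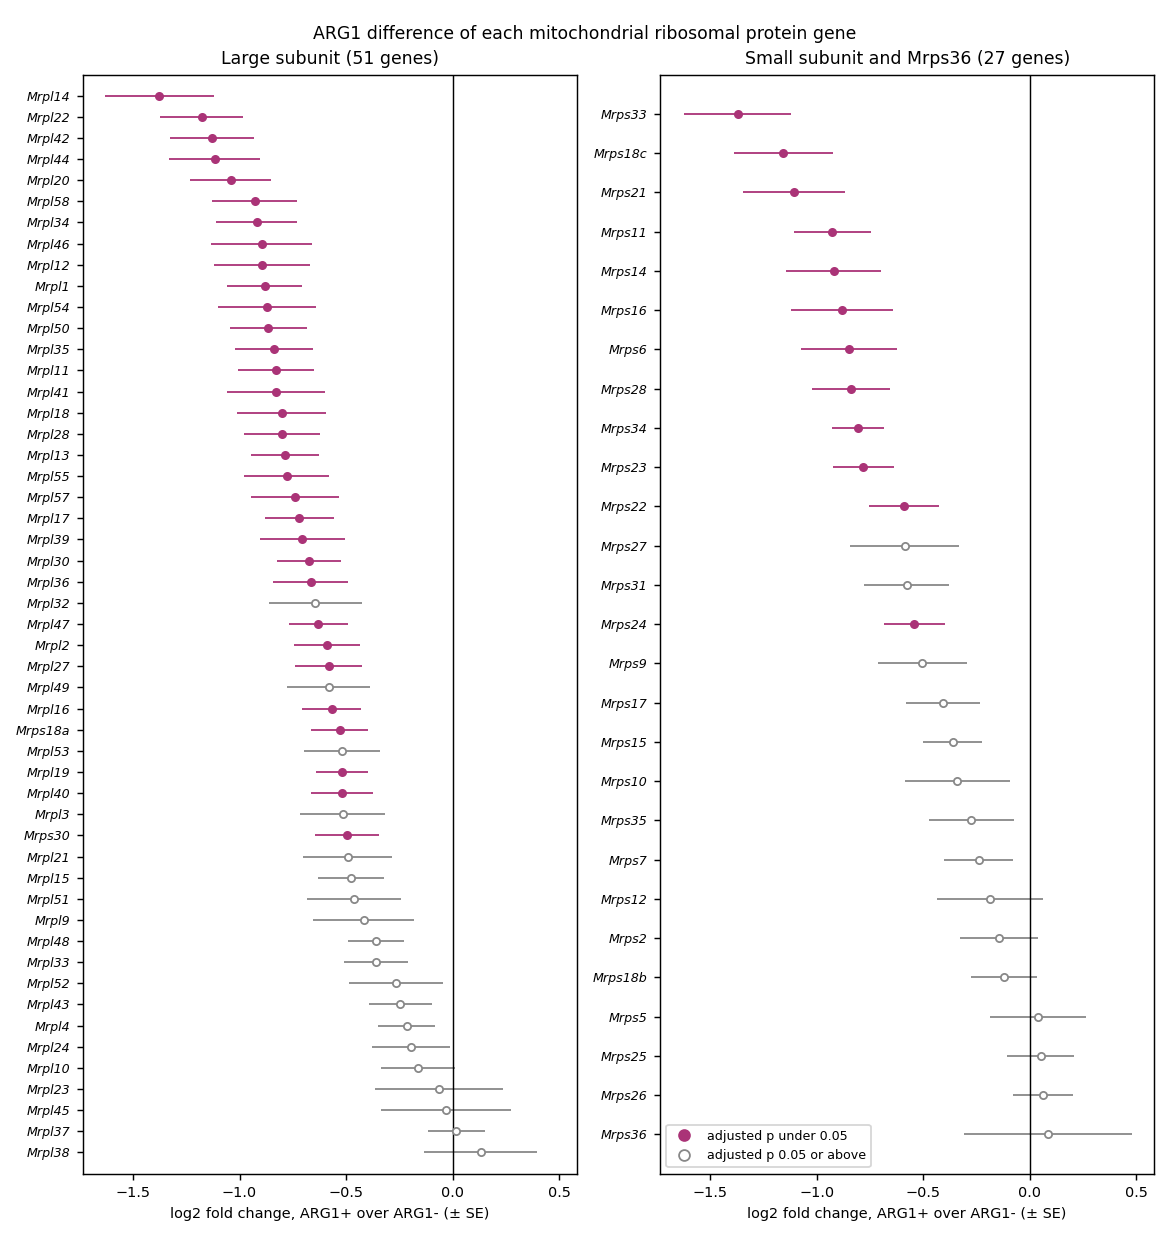
Log2 fold change of each of the 78 genes between ARG1+ and ARG1- microglia (x axis, point ± SE from the edgeR fit over 12 libraries), with the 51 large subunit genes on the left and the 26 small subunit genes plus Mrps36 on the right. Filled points passed the test at an adjusted p under 0.05, and 72 of the 78 points lie left of 0.

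Genes of both subunits fell. The large subunit forms the peptide bonds and the small subunit decodes the mRNA. Of the 51 large subunit genes, 32 fell (62.7%), with a median log2 fold change of -0.63, and of the 26 small subunit genes 12 fell (46.2%), with a median of -0.56. The sum over the large subunit was 1694 ± 120 CPM in ARG1- and 1130 ± 124 CPM in ARG1+ (SD, n = 6 each), a ratio of 0.667. The sum over the small subunit was 753 ± 40.7 CPM and 534 ± 51.7 CPM, a ratio of 0.709. The difference between the subunits was not tested.

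Genes with and without a bacterial counterpart were both among those that fell. Of the 46 genes whose proteins have a counterpart in the bacterial ribosome, 28 fell with a median of -0.64. Of the 32 without one, among which Mrps36 is counted although it is not a ribosomal protein, 16 fell with a median of -0.55. Within the large subunit the counts were 20 of 30 with a counterpart and 12 of 21 without one, and within the small subunit 8 of 16 and 4 of 10. This split was not tested.

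A group of 5 of the 12 genes with the smallest p code for large subunit proteins with a bacterial counterpart. Mrpl22 (chr11:58171661-58179565, plus strand), whose product lines the tunnel through which the new peptide leaves, had 19.2, 22.5 and 27.2 CPM as lowest, median and highest in ARG1- and 6.43, 9.89 and 13.5 CPM in ARG1+. The populations did not overlap, and the gene fell by 1.18 on the log2 scale (SE 0.20, edgeR adjusted p 0.00230). Mrpl20 (chr4:155802878-155809975, plus strand), the counterpart of an early-binding assembly protein of the bacterial large subunit, had 28.7, 37.8 and 39.9 CPM in ARG1- and 11.9, 18.02 and 23.1 CPM in ARG1+. It fell by 1.04 (SE 0.19, edgeR adjusted p 0.00386) without overlap.

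Mrpl14 (chr17:45686322-45698495, plus strand), a protein of the face that meets the small subunit, showed the largest fall of the 78 genes. It had 10.1, 14.8 and 18.7 CPM in ARG1- and 4.18, 4.69 and 8.86 CPM in ARG1+, and it fell by 1.38 (SE 0.25, edgeR adjusted p 0.00417). Mrpl1 (chr5:96209493-96266727, plus strand), a protein of the stalk beside the site where used tRNAs leave, had 19.8, 25.8 and 31.0 CPM in ARG1- and 11.2, 13.6 and 17.9 CPM in ARG1+. Mrpl13 (chr15:55534094-55557748, minus strand), which binds large subunit rRNA, had 24.0, 32.8 and 45.9 CPM in ARG1- and 18.1, 19.2 and 22.8 CPM in ARG1+. In both genes all ARG1+ libraries lay below all ARG1- libraries, and their log2 fold changes were -0.88 (edgeR adjusted p 0.00607) and -0.79 (edgeR adjusted p 0.00673).

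Mrpl42 and Mrpl44 code for large subunit proteins that bacteria lack, the second with the fold of a ribonuclease III. Mrpl42 (chr10:95480805-95501940, minus strand) had 38.7, 55.7 and 64.6 CPM in ARG1- and 18.1, 22.3 and 37.7 CPM in ARG1+, so the highest ARG1+ library came close to the lowest ARG1- library. It fell by 1.13 (SE 0.20, edgeR adjusted p 0.00308). Mrpl44 (chr1:79776018-79781445, plus strand) ranged from 31.0 to 63.5 CPM in ARG1- with a median of 45.7, and from 10.7 to 24.6 CPM in ARG1+ with a median of 23.0. It fell by 1.12 (SE 0.21, edgeR adjusted p 0.00490), and its lowest ARG1+ value, in ARG1+ female replicate 7, stood apart from the other 5.

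The small subunit gave the other 5 of these 12 genes. Mrps34 (chr17:24895116-24897502, plus strand), a protein found in the mitochondrial but not the bacterial small subunit, had the smallest p of all 78 genes. Its levels were 55.2, 58.6 and 61.7 CPM in ARG1- and 27.0, 33.0 and 39.4 CPM in ARG1+, and it fell by 0.81 (SE 0.12, edgeR adjusted p 0.00133). Its overlaps with exons of Mapk8ip3 on the opposite strand and Nme3 on the same strand, added up, reach 100% of its exonic bases. Bases under both genes were counted for each, so the share covered may be lower. The library kit does not mark strand, so its reads cannot be assigned to it with certainty.

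Mrps33 (chr6:39801804-39810988, minus strand) and Mrps23 (chr11:88204388-88211507, plus strand) also lack a bacterial counterpart. Mrps33 had 8.46, 14.7 and 17.0 CPM in ARG1- and 3.34, 5.17 and 7.64 CPM in ARG1+, and it fell by 1.37 (SE 0.25, edgeR adjusted p 0.00396), the second largest fall. Mrps23 fell by 0.78 (SE 0.14, edgeR adjusted p 0.00389), from a median of 31.1 CPM in ARG1- to 17.96 CPM in ARG1+. It alone of the 12 had overlapping populations, with a highest ARG1+ library of 23.1 CPM and a lowest ARG1- library of 23.0 CPM. Mrps11 (chr7:78783119-78792989, plus strand), a protein of the platform of the small subunit, had 20.8, 30.6 and 34.9 CPM in ARG1- and 12.99, 14.8 and 20.5 CPM in ARG1+, and it fell by 0.93 (SE 0.18, edgeR adjusted p 0.00540). Exons of Mrps11 overlap those of Mrpl46, a large subunit gene on the opposite strand, over 8.0% of the exonic bases of Mrps11, and Mrpl46 fell as well, by 0.90 (edgeR adjusted p 0.0234).

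**Figure D2:**
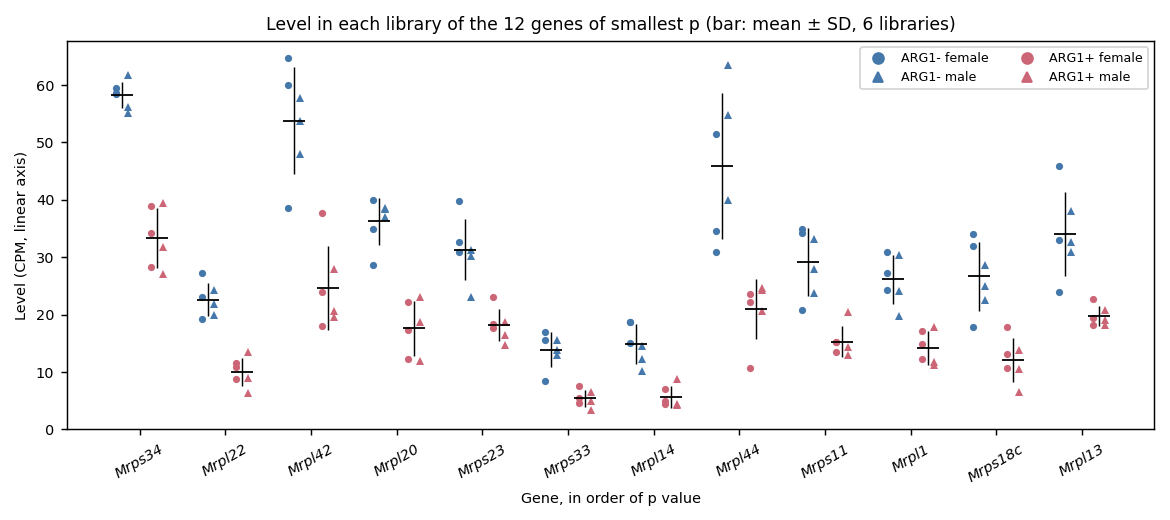
Level in CPM (y axis, linear from 0) of the 12 genes of smallest p in every library, with ARG1- in blue, ARG1+ in red, circles for females and triangles for males, and black bars for the mean ± SD of the 6 libraries of a population. For 11 of the 12 genes the red points all lie below the blue points. For Mrps23 the highest red point lies just above the lowest blue point.

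The 3 paralogs of the bacterial S18 protein had unlike fitted changes. Mrps18c (chr5:100798627-100804471, plus strand), which takes the place of S18 in the small subunit, had 17.9, 26.8 and 34.1 CPM in ARG1- and 6.56, 11.9 and 17.9 CPM in ARG1+, and it fell by 1.16 (SE 0.23, edgeR adjusted p 0.00612). Its highest ARG1+ library (17.866 CPM) lay just below its lowest ARG1- library (17.920 CPM). Mrps18a (chr17:46110986-46128910, plus strand), whose product is in the large subunit, fell by 0.53 (SE 0.14, edgeR adjusted p 0.0198), from a median of 39.9 to 27.1 CPM. Mrps18b (chr17:35910379-35916389, minus strand), of the small subunit, had medians of 17.4 and 17.0 CPM and a fitted log2 change of -0.12 (SE 0.15, edgeR adjusted p 0.658). The paralogs were not tested against each other, and exons of other genes cover 23.2% of Mrps18c and 30.5% of Mrps18b.

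The stalk that recruits translation factors is built on Mrpl11 and Mrpl10 and carries copies of Mrpl12. Mrpl11 fell by 0.83 (SE 0.18, edgeR adjusted p 0.00850) and Mrpl12 by 0.90 (SE 0.23, edgeR adjusted p 0.0186). Mrpl10 had a log2 fold change of -0.16 (edgeR adjusted p 0.591), with medians of 43.5 CPM in ARG1- and 36.1 CPM in ARG1+. Around the exit of the peptide tunnel 3 of 6 genes fell, Mrpl22, Mrpl17 (by 0.72, edgeR adjusted p 0.0110) and Mrpl47 (by 0.63, edgeR adjusted p 0.00956). The other 3 were Mrpl23, Mrpl24 and Mrpl45, the last of which anchors the ribosome at the inner membrane, with log2 fold changes of -0.06, -0.20 and -0.03. Mrpl58, a release factor relative built into the large subunit that frees stalled ribosomes, fell by 0.93 (edgeR adjusted p 0.00877).

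Several small subunit genes with a bacterial counterpart did not pass. Mrps12, of the decoding centre, had a log2 fold change of -0.19 (SE 0.25), Mrps2 of -0.15 (SE 0.18), Mrps7 of -0.24 (SE 0.16) and Mrps5 of 0.04 (SE 0.22). Mrps5 (chr2:127587222-127606829, plus strand) had 9.66, 16.4 and 19.5 CPM in ARG1- and 10.2, 15.4 and 19.5 CPM in ARG1+, with fully overlapping populations. Mrps30, named for the small subunit but placed in the large one, fell by 0.50 (SE 0.15, edgeR adjusted p 0.0412), the smallest fall that passed. Mrps36 (chr13:100735955-100744659, minus strand), the dehydrogenase subunit, had 2.01, 2.71 and 3.25 CPM in ARG1- and 0.756, 2.94 and 4.22 CPM in ARG1+, and its fitted log2 change was 0.09 (SE 0.39, edgeR adjusted p 0.911).

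The other genes that fell spanned both subunits, with log2 fold changes from -1.11 for Mrps21 to -0.52 for Mrpl40. In the large subunit these were Mrpl16, Mrpl18, Mrpl19, Mrpl27, Mrpl30, Mrpl34, Mrpl35, Mrpl39, Mrpl40, Mrpl50, Mrpl54, Mrpl55 and Mrpl57, and in the small subunit Mrps6, Mrps14, Mrps16, Mrps21, Mrps24 and Mrps28. Mrpl34, whose promoter window is printed with those of Mrpl22 and Mrps23, had 12.8, 15.9 and 16.3 CPM in ARG1- and 5.77, 8.09 and 9.89 CPM in ARG1+, and it fell by 0.92 (SE 0.19, edgeR adjusted p 0.00686). Mrps21 had 11.7, 16.9 and 19.6 CPM in ARG1- and 4.83, 7.39 and 10.5 CPM in ARG1+, again without overlap.

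The genes nearest to the limit on its other side were Mrpl15 (log2 fold change -0.48, edgeR adjusted p 0.0555), Mrpl49 (-0.58, edgeR adjusted p 0.0616) and Mrpl32 (-0.64, edgeR adjusted p 0.0656). Mrpl3, Mrpl4, Mrpl9, Mrpl21, Mrpl33, Mrpl43, Mrpl48, Mrpl51, Mrpl52, Mrpl53, Mrps9, Mrps10, Mrps15, Mrps17, Mrps27, Mrps31 and Mrps35 had log2 fold changes from -0.59 (Mrps27) to -0.22 (Mrpl4) and did not pass. Mrpl37 and Mrpl38 had log2 fold changes of 0.02 (SE 0.13) and 0.13 (SE 0.27), and Mrps25 and Mrps26 of 0.05 (SE 0.16) and 0.06 (SE 0.14).

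Levels per exonic length were ranked by the mean of both populations, whose own orders differ. Mrpl28 came first on that mean, with 42.8 ± 8.36 CPM per kilobase in ARG1- and 24.4 ± 5.75 in ARG1+ (SD, n = 6 each). Mrpl2 (33.0 ± 4.12 and 22.0 ± 4.12), Mrpl43 (29.2 ± 5.73 and 24.5 ± 2.41), Mrpl41 (32.5 ± 8.06 and 18.4 ± 5.48) and Mrpl36 (28.8 ± 3.61 and 18.2 ± 4.35) followed in CPM per kilobase, and neighbours in this order overlap within their SDs. In ARG1+ alone Mrpl43 was level with Mrpl28, and Mrpl10 (20.9 CPM per kilobase), Mrpl4 (20.9) and Mrpl24 (18.8) lay above Mrpl41 and Mrpl36, and in ARG1- alone Mrpl18 (29.8) lay above Mrpl43 and Mrpl36. The 5 genes code for large subunit proteins, and all but Mrpl43 fell, with log2 fold changes of -0.80 for Mrpl28 (edgeR adjusted p 0.0103), -0.59 for Mrpl2 (0.0224), -0.83 for Mrpl41 (0.0283) and -0.67 for Mrpl36 (0.0235).

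The lowest levels per length on the same mean were those of Mrpl23 (2.183 ± 0.542 CPM per kilobase in ARG1-, 2.12 ± 0.856 in ARG1+), Mrps36 (2.09 ± 0.424 and 2.30 ± 0.948), Mrps35 (2.51 ± 0.715 and 2.07 ± 0.324), Mrps5 (2.32 ± 0.590 and 2.39 ± 0.517) and Mrps22 (3.74 ± 0.394 and 2.48 ± 0.334). Of these 5, Mrps22 alone passed the test, and it fell by 0.59 (edgeR adjusted p 0.0289). Exonic length is the union of all annotated exons, 8631 bases for Mrps35 and 888 bases for Mrpl41, so genes with long annotated isoforms rank low on this scale.

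Across the 78 genes the log2 fold change rose with the logarithm of exonic length (Pearson's r 0.356, Spearman's rho 0.367, genes of the same 12 libraries and not independent replicates). Among the 39 shortest genes 26 fell with a median of -0.78, and among the 39 longest 18 fell with a median of -0.52. With GC content r was 0.041 and with mean log2 CPM 0.157. The part of length in the result was not tested beyond a fit with the length and GC trend removed, in which 41 genes fell.

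Shared annotation limits some of these genes. Overlaps with exons of other genes, added up over those genes, reach at least 20% of the exonic bases of 11 of the 78 genes. Of these 11 genes 5 fell, and 39 of the other 67 fell. In 21 genes a stretch of at least 75 bases is at least 95% identical to an annotated pseudogene transcript. Among them are Mrpl22, Mrpl42, Mrpl41, Mrpl23, Mrps10, Mrps18c, Mrps21 and Mrps33. Mrpl19 and Mrpl35 both match Rpl28-ps2, which is named for another gene, so a match need not be a copy. How reads were shared with these transcripts is not given in the sources used here. The 5 rows of the table that are named as pseudogenes of this family (Mrpl23-ps1, Mrpl48-ps and 3 of Mrps36) held at most 26 counts in any library.

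Many of these genes are arranged head to head with a neighbour on the opposite strand. For 23 of the 78, the distance between the starts lay between -200 bases (overlapping starts) and 1000 bases. Of these 23 genes 12 fell. Of the 22 neighbours tested, 4 fell and 1 rose, with a median log2 fold change of 0.07. Mrpl36 and Ndufs6, a subunit of complex I, fell together (log2 fold changes of -0.67 and -0.96), and this was the only pair within these limits in which both passed. Mrps11 and Mrpl46, on opposite strands, overlap at their starts beyond the limit of -200 bases. They were not counted here, and both fell. Mrps18c fell by 1.16 beside Helq at a log2 fold change of 2.01 (SE 1.08, edgeR adjusted p 0.244), and Mrps7 was at -0.24 (edgeR adjusted p 0.367) beside Gga3, which rose by 0.86 (edgeR adjusted p 0.0385). With an ETS element 14 of 26 genes fell (median -0.59) and without it 25 of 43 (median -0.59), 3 of 8 with and 36 of 61 without the NRF1 element, and 6 of 8 with and 33 of 61 without the YY1 element.

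The fall was present in the libraries of both sexes. In females 9 of the 78 genes fell and 0 rose (4.16% of all genes tested fell), and in males 11 fell and 0 rose (3.1%). The fitted change was below 0 in 69 genes in females and 73 in males, with 65 below 0 in both, and the medians were -0.60 and -0.61. Mrps34 and Mrpl22 passed in both sexes, 7 genes in females alone and 9 in males alone, without any tested difference between the sexes. With 3 libraries a group these counts were unstable. They were 26 in females and 34 in males with DESeq2, 2 and 2 with no filter on low counts, 3 in females with RLE size factors and 5 with upper-quartile factors, and in males 6 with the length and GC trend removed and 0 with each sex in its own fit. Leaving out 1 library gave 0 to 7 genes in females and 0 to 17 in males. The female count moved by over 1.5 times for 10 of the 12 libraries left out, all but ARG1- male replicate 6 and ARG1+ male replicate 11 (7 genes each). The male count did so for 10 as well, all but ARG1- female replicate 1 (11 genes) and ARG1- female replicate 13 (8 genes).

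In females the smallest p values belonged to Mrpl14, Mrpl28 and Mrps34. Mrpl14 had 15.1, 18.6 and 18.7 CPM in the 3 ARG1- female libraries and 4.47, 4.90 and 7.04 CPM in the 3 ARG1+ female libraries, and fell by 1.67 (SE 0.35, edgeR adjusted p 0.0214). Mrpl28 had 55.4, 70.6 and 75.2 CPM against 28.2, 32.7 and 33.6 CPM, and fell by 1.09 (edgeR adjusted p 0.0216). Mrps34 had 58.5, 58.7 and 59.4 CPM against 28.3, 34.3 and 38.98 CPM, and fell by 0.80 (edgeR adjusted p 0.0254). In males they belonged to Mrps10, Mrps34 and Mrpl55. Mrps34 had 55.2, 56.2 and 61.7 CPM in ARG1- male libraries and 27.0, 31.8 and 39.4 CPM in ARG1+ male libraries, and fell by 0.82 (edgeR adjusted p 0.0311). Mrpl55, of the large subunit, had 23.1, 26.9 and 27.6 CPM against 10.8, 11.1 and 13.4 CPM, and fell by 1.13 (edgeR adjusted p 0.0329). In each of these pairs the ARG1+ libraries lay below the ARG1- libraries of the same sex.

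Mrps10, a small subunit protein with a bacterial counterpart, stood apart in its values by sex. It had 19.4, 20.7 and 25.9 CPM in ARG1- female libraries and 42.9, 44.9 and 61.4 CPM in ARG1- male libraries. In ARG1+ it had 25.8, 26.6 and 31.4 CPM in females and 21.1, 24.9 and 27.3 CPM in males. It fell by 1.02 in males (SE 0.21, edgeR adjusted p 0.0251), but the test of the difference between the sexes did not pass over all genes (difference 1.37, SE 0.29, unadjusted p 0.000577, edgeR adjusted p 0.279).

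No mitochondrial ribosomal protein gene passed the test for a different ARG1 effect in the sexes (0 of 78 by edgeR, and 0% of all genes tested). DESeq2 called 1. The unadjusted edgeR p was under 0.05 for 6 of the 78 genes and for 1576 of all 16908 genes tested. After Mrps10 the smallest p values were those of Mrpl10 (difference -0.75, edgeR adjusted p 0.491) and Mrpl32 (0.92, edgeR adjusted p 0.491). Between females and males 0 genes passed by edgeR in ARG1- microglia (0.0946% of all genes tested) and 0 in ARG1+ microglia (0.0355%). DESeq2 called 1 in ARG1- and 0 in ARG1+. An unadjusted edgeR p under 0.05 was found for 3 of the 78 genes in ARG1- (1692 of all 16908 genes). In ARG1+ it was found for 1 of the 78 (528 of all). Mrps10 (-1.18), Mrpl10 (0.66) and Mrps2 (0.53) had the smallest p for female against male in ARG1-, with edgeR adjusted p of 0.103, 0.396 and 0.474. Mrpl32 (0.58), Mrps14 (0.52) and Mrpl24 (0.37) had them in ARG1+, each with an edgeR adjusted p of 1.

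**Figure D3:**
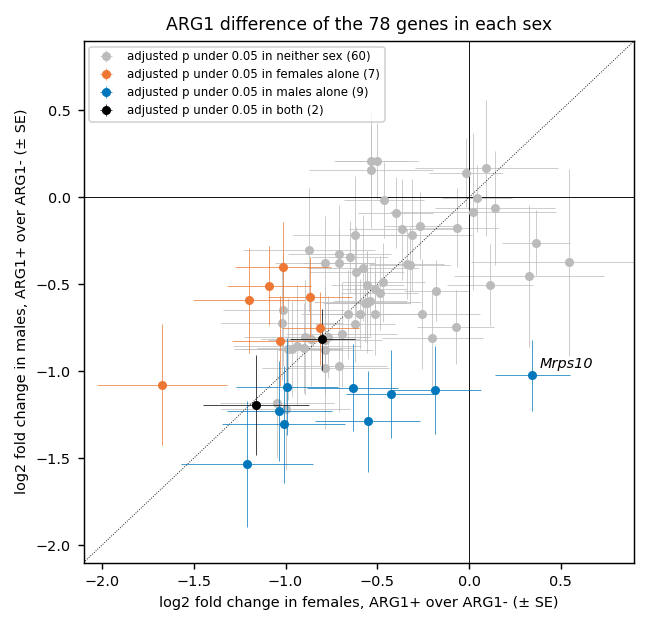
Log2 fold change of the 78 genes between ARG1+ and ARG1- microglia in females (x axis) and in males (y axis), each ± SE, with the dotted line marking equal values. Of the 78 points 65 lie below 0 on both axes, 2 passed in both sexes (black), 7 in females alone (orange) and 9 in males alone (blue), and Mrps10 lies far below the dotted line.

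The other genes of mitochondrial translation were taken from lists set beside the 78. Of 5 further mitochondrial ribosomal proteins whose symbols follow another pattern, 3 fell and 0 rose (median -0.47). These were Chchd1 (fell by 1.14, edgeR adjusted p 0.00796), Gadd45gip1 (fell by 0.66) and Aurkaip1 (fell by 0.47), whereas Dap3 and Ptcd3 of the small subunit had log2 fold changes of 0.14 and 0.04. Of 21 assembly factors, 5 fell and 0 rose (median -0.31). They were Rbfa, which matures the small subunit rRNA, the rRNA methyltransferases Tfb1m and Mrm2, the RNA-binding protein Fastkd2 and Mpv17l2, with log2 fold changes of -0.64, -1.05, -0.77, -0.86 and -0.60. The summed level of the assembly factors was 586 ± 46.9 CPM in ARG1- and 503 ± 25.7 CPM in ARG1+ (SD, n = 6 each).

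Genes of mitochondrial translation factors and aminoacyl-tRNA synthetases fell in shares near or below the 9.42% of all genes tested. Of 11 initiation, elongation, release and activation factors 1 fell (9.1%), the initiation factor Mtif3 (by 0.45, edgeR adjusted p 0.0155), and the median was -0.13. Tufm, the mitochondrial elongation factor Tu, had a log2 fold change of -0.11. Gfm2, counted among the 11, had means of 5388 CPM in ARG1- and 4534 CPM in ARG1+. The next highest was Mtif3, at 79.8 CPM in ARG1-. Whether the reads counted for Gfm2 come from that gene was not tested. Of 17 mitochondrial aminoacyl-tRNA synthetases 1 fell (5.9%) and 0 rose (median 0.09). That gene was Lars2, which charges leucine tRNA, at 186 ± 37.1 CPM in ARG1- and 56.9 ± 6.96 CPM in ARG1+ (SD, n = 6 each), and it fell by 1.71 (SE 0.14, edgeR adjusted p 0.000187).

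Of 14 genes of mitochondrial transcription and RNA handling, 4 fell and 1 rose (median -0.02). Tfam, which packs and transcribes mitochondrial DNA, fell by 0.89, the elongation factor Tefm fell by 0.97, the mRNA-stabilising Slirp fell by 0.77 and Hsd17b10, a subunit of mitochondrial RNase P, fell by 1.16 (edgeR adjusted p 0.00117). Fastk rose by 0.67 (edgeR adjusted p 0.0141). Polrmt, the mitochondrial RNA polymerase, had a log2 fold change of 0.33 (SE 0.22).

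Of the 13 mRNAs encoded by the mitochondrial genome, 8 could be tested, and 4 fell and 0 rose (median -0.89). Among them, mt-Co1 fell by 0.96 and mt-Nd1 by 0.99. Of those not tested, mt-Co2, mt-Atp6 and mt-Atp8 were at 0 CPM in both populations. The mean levels of mt-Co3 and mt-Nd4l were 0.025 and 0.014 CPM in ARG1- and 0.0076 and 0.0095 CPM in ARG1+. Why these mRNAs were at or near 0 was not tested. The summed level of the 10 mRNAs with any count was 4202 ± 1042 CPM in ARG1- and 2252 ± 616 CPM in ARG1+ (SD, n = 6 each). The lowest ARG1- library (ARG1- female replicate 1, 2144 CPM) lay within the ARG1+ range. Nuclear genes of oxidative phosphorylation fell in 69 of 81 tested, with 0 higher and a median of -0.89. Cytosolic ribosomal protein genes fell in 76 of 77, with 0 higher and a median of -1.19, Rpl10a being the exception (log2 fold change -0.20, edgeR adjusted p 0.436).

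**Figure D4:**
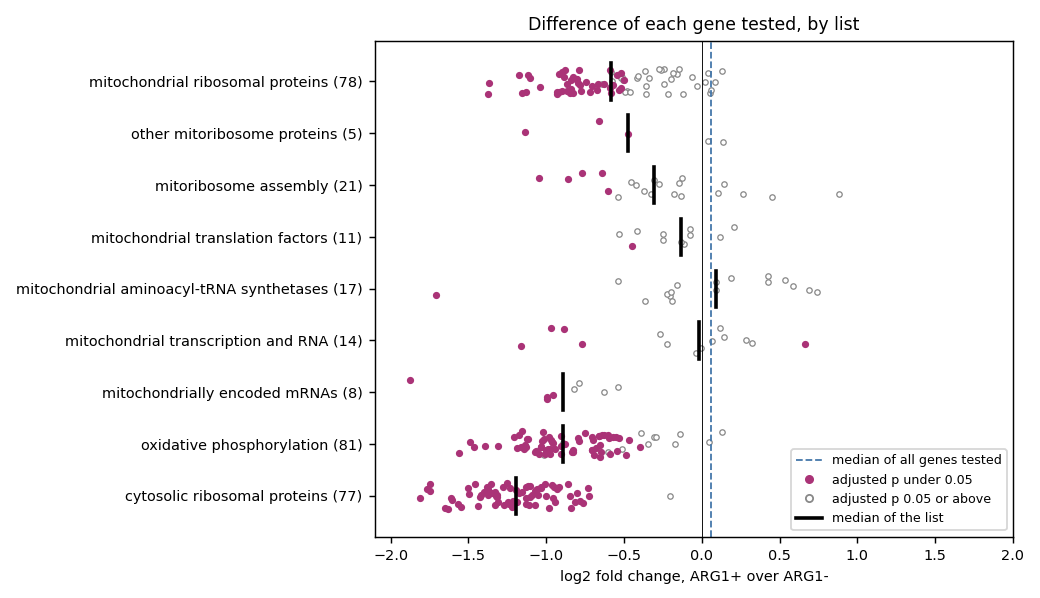
Log2 fold change between ARG1+ and ARG1- microglia (x axis) of each gene tested, in 9 lists (rows, number of genes tested in brackets). Filled points passed at an adjusted p under 0.05, black bars are list medians and the dashed line is the median of all 16908 genes tested (0.06). The medians run from -1.19 for cytosolic ribosomal proteins to 0.09 for the aminoacyl-tRNA synthetases.

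Relative to the cytosolic ribosomal protein genes, the mitochondrial ribosomal protein genes held a larger place in ARG1+ libraries. The sum of the 78 genes divided by that of the 77 cytosolic genes was 0.386, 0.424 and 0.441 as lowest, median and highest in ARG1- libraries and 0.545, 0.634 and 0.757 in ARG1+ libraries. The cytosolic sum itself went from 5844 ± 540 to 2663 ± 577 CPM (SD, n = 6 each), a ratio of 0.456. Divided by the sum of the nuclear oxidative phosphorylation genes, the 78 genes gave 0.331, 0.3504 and 0.358 in ARG1- and 0.363, 0.376 and 0.392 in ARG1+. The populations did not overlap on either quotient, for which no test was made.

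**Figure D5:**
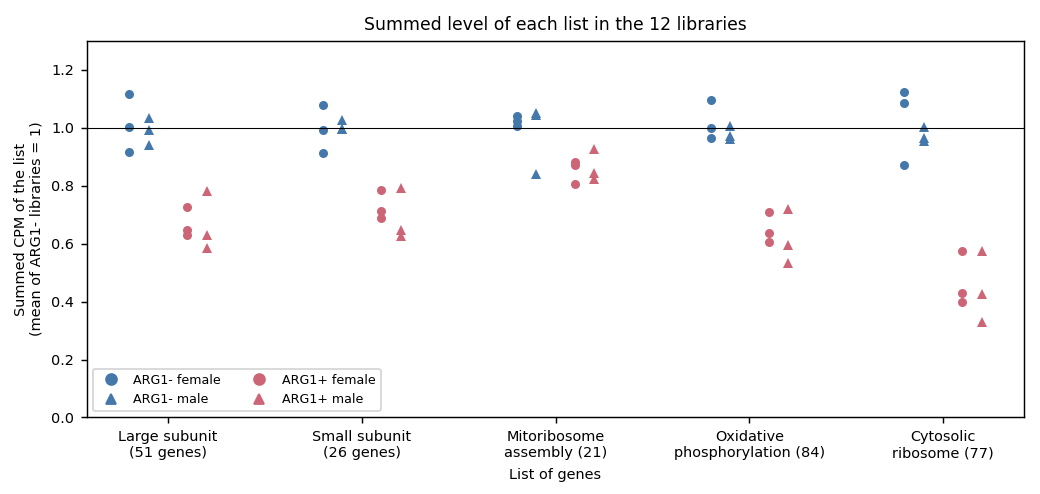
Summed CPM of 5 lists in each of the 12 libraries (y axis, divided by the mean of the 6 ARG1- libraries, which is set to 1), with colours for the populations and symbols for the sexes. The populations are apart for the large and small subunits, oxidative phosphorylation and the cytosolic ribosome, and overlap for the assembly factors.

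The libraries carried microglial transcripts at high levels and few transcripts of other cells. The sum of 9 microglial markers was 48031 to 63992 CPM in ARG1- and 37935 to 48857 CPM in ARG1+, with 6 markers lower (P2ry12, Tmem119, Siglech, Gpr34, Olfml3 and Fcrls) and 1 higher (Sall1). Of the 4 neuronal markers none passed, and their sum was 3.39 to 9.70 CPM in ARG1- and 0.920 to 5.46 CPM in ARG1+. The 4 red cell markers summed to 3.48 to 15.8 and to 0 to 3.32 CPM, none passing. The 4 monocyte markers, of which Plac8 fell, summed to 4.15 to 13.1 and to 1.48 to 6.43 CPM, with Chil3 at 0 in all libraries. The 4 oligodendrocyte markers summed to 40.4 to 126 and to 41.4 to 90.3 CPM, none passing, and the 6 border macrophage markers to 106 to 141 and to 109 to 235 CPM, none passing, almost all of it Mrc1. The 4 astrocyte markers summed to 155 to 209 and to 127 to 147 CPM, almost all of it Slc1a3, which fell. The 4 endothelial markers summed to 28.0 to 56.7 and to 44.0 to 83.3 CPM, none passing, with Cldn5 at 0 in all libraries. The part of these cells in the fall of the mitochondrial ribosomal protein genes was not tested.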

How the data were processed

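RNA was measured in 12 libraries of sorted microglia, 3 for each ARG1 population and sex. The authors deposited raw read counts per gene. Per their methods and processing notes, single reads of a SMART-Seq v4 library were processed with bcl2fastq 2.20.0. They were aligned to GRCm38 with STAR 2.6.1d and counted with featureCounts 1.5.1. That the library does not mark strand was taken from the kit named.

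From these counts edgeR 4.0.16 (R 4.3.3) kept 16908 of 55487 genes by filterByExpr, applied TMM factors and fitted its quasi-likelihood test to all 12 libraries with sex and ARG1 status. A fit of the 4 group means gave the contrasts involving sex. P-values were adjusted by Benjamini-Hochberg over all genes tested, with a limit of 0.05. The SE of a log2 fold change is its size divided by the square root of F. Symbols, lengths and overlaps are from GENCODE M21, and 260 identifiers without a match held 0.0333% of counts. Stretches shared with pseudogene transcripts were searched with BLAST 2.17.0. The scripts were tested on simulated data.

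Libraries of a group came from separate pools of animals, and their counts differed beyond sampling noise (chi-square per degree of freedom 40.68 to 125.02). Per the study's methods, both populations were sorted from the same dissected tissue, so an ARG1+ and an ARG1- library may share a litter. The labels do not show which, so the fits treat the 12 libraries as independent. The 78 genes, the lists and the rule for named genes were chosen with earlier results of these data known. Per-library values were given by rule for the 12 genes of smallest p, the 5 highest and 5 lowest per length, Mrps18a, Mrps18b, Mrps18c, Mrps30, Mrps36 and the 3 of smallest p in each sex contrast, and other genes were named by role with their values seen. Alternatives were other size factors and filters, DESeq2 1.42.0, other models, a length and GC correction and leaving out each library.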

Additional observations from a re-analysis of the deposited data

Results flagged for a closer look

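In 9 of 156 sets of 6 libraries (1 gene in 1 population) the highest or lowest library lay beyond Dixon's 95% limit. That limit passes 1 in 20 independent sets by chance. These sets share the same 12 libraries, so the count cannot be set against that share. In ARG1- microglia Mrpl17 stood at 79.0 CPM in ARG1- female replicate 2 (next 61.8), Mrps15 at 50.8 CPM in ARG1- male replicate 14 (next 34.4), Mrpl43 at 27.4 CPM in ARG1- male replicate 14 (next 44.6) and Mrps9 at 15.7 CPM in ARG1- female replicate 1 (next 29.8). In ARG1+ microglia Mrpl28 at 48.4 CPM, Mrps26 at 34.5 CPM and Mrps11 at 20.5 CPM stood high in ARG1+ male replicate 11, Mrpl44 stood low at 10.7 CPM in ARG1+ female replicate 7 (next 20.7), and Mrpl50 stood low at 14.6 CPM in ARG1+ male replicate 12 (next 20.7). The summed levels of all 78 genes and of each subunit gave 0 of 6 such cases.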

How the results depend on the processing

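No gene of the 78 rose in any alternative, the median log2 fold change stayed between -0.63 and -0.52, and in 0 cases did the sign of a called gene turn. The count of genes that fell (44) was 28 with no filter on low counts and 25 to 48 when 1 library was left out. Of the 44 genes, 24 passed in all 12 fits that left out 1 library, 27 in all 8 other alternatives and 23 in every one. In females (9) the count was 3 with RLE size factors, 5 with upper-quartile factors, 2 with no filter, 26 with DESeq2 and 0 to 7 leaving out 1 library. In males (11) it was 2 with no filter, 34 with DESeq2, 6 with the length and GC trend removed, 0 with each sex in its own fit and 0 to 17 leaving out 1 library. DESeq2 called 1 gene for the difference between the sexes in the ARG1 effect and 1 for sex in ARG1- microglia. Of the genes of the comparison lists, 163 fell and 1 rose, and the latter count was 2 with RLE or upper-quartile factors, 3 with at least 10 counts in every library or ARG1 status alone, 4 with DESeq2 and 1 to 2 leaving out 1 library. Splits by label number were added after seeing the data. Libraries numbered 1 to 12 alone gave 2 of the 78 genes and 87 list genes lower and 0 higher, and those numbered 13 to 16 alone gave 0, 0 and 0, with 75 and 65 of the 78 genes fitted below 0 and 65 in both. These counts come from fewer libraries, and the cause of the other changes was not tested. No paired analysis was possible because the groups share no replicate number, although libraries of both populations may come from the same litters.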
